A study of Drosophila melanogaster with 3 samples.

Results

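The regions described here are the weaker binding sites of the Drosophila melanogaster protein CG12391 that lie between genes. They are 4395 of the 30000 peaks called on pooled embryo ChIP-seq libraries, or 14.7%, and 22.2% of the 19789 pooled peaks that overlap no peak passing the irreproducible discovery rate (IDR) threshold. IDR is a measure of how alike replicates rank a peak. A pooled peak was kept when it shared no base with any of the 8522 IDR-thresholded peaks, when its summit lay over 500 bp from every annotated transcription start site (TSS), and when the summit was inside no transcript. Transposable elements and pseudogenes were left out of the annotation for this choice. Embryos of both sexes aged 0 to 24 h came from a transgenic line carrying CG12391 fused at its C terminus to eGFP, and the fusion was precipitated with an antibody against GFP. All 3 biological replicates belong to this 1 group, so no treatment, stage or genotype was compared. The tagged protein came from an insertion, and the labels give neither the driving promoter nor the state of the native gene. Whole embryos of a broad age range hold many cell types, and a weak peak present in few cells cannot be told apart from a weak peak present in many.

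CG12391 was assayed as a transcription factor. Such factors bind DNA both at promoters and at distal elements, among them enhancers, which act on genes from a distance, and insulators, which limit that action. In the fly, large spaces between genes are found mostly around developmental regulators, and their distal elements drive expression patterns in the embryo. ChIP-seq recovers fragments cross-linked to the protein, and a peak is a place where these fragments pile up over a control, with its summit at the highest point.

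The pooled list and each replicate list hold exactly 30000 rows, so the lists give no measure of depth, and read depth is unknown. The members were chosen by the deposited signal value, the authors' own measure of peak strength, through the IDR threshold, and by annotated position. The signal ran among members from 48.6 to 227, with a median of 80.4, against a median of 80.1 for weaker peaks in introns, 96.0 for weaker peaks at promoters and 394 for IDR-thresholded peaks between genes. The 3 members just inside the threshold had signals of 227.07 between spri and Rab9D, 226.99 between lncRNA:CR44522 and CG43168, and 226.84 between CG14506 and Cnx99A. The 3 IDR-thresholded peaks between genes just outside it had 227.37 between Ndae1 and CG13786, 227.47 between Rh5 and lncRNA:CR44588, and 227.72 between Tmtc1 and CG31689. Of the members, 99.0% were 440 bp wide with the summit in the middle, against 29.8% of that width among IDR-thresholded peaks between genes. When the same rule was applied to the peaks of each replicate it found 4175, 4536 and 3803 regions, a mean of 4171 ± 367 (SD, n = 3).

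Summit sequences are shown for 4 of the 12 strongest members. The last was chosen for its low A+T and the others because they hold a word rich in A and T, so they are not typical. TTTAAAAA was in 4.91% of all member windows and 7.37% of those in the strongest quartile by signal. They are 101 bases each, centred on the summit, from the plus strand of the Release 6 assembly in RefSeq, whose coordinates are those of dm6. Capitals mark the words TTTAAAAA and TATAAAA on either strand. The summit between CG31128 and nAChRalpha2, which encodes a nicotinic acetylcholine receptor subunit, lies at chr3R:24474910-24475010 and is 71.3% A+T. The summit between CG46448 and VGlut, the vesicular glutamate transporter gene, lies at chr2L:2398614-2398714 and is 74.3% A+T. The summit between dysc, a gene of circadian output, and Rgl lies at chr3L:13904061-13904161 and is 76.2% A+T. The summit between lncRNA:CR45622 and upd2, which encodes a JAK/STAT pathway ligand, lies at chrX:18239435-18239535, has the lowest A+T of the 12 at 44.6%, and holds neither word.
CG31128 to nAChRalpha2: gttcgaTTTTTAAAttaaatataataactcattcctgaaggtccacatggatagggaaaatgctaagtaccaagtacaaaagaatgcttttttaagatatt
CG46448 to VGlut: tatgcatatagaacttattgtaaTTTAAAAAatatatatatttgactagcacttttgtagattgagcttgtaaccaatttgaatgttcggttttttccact
dysc to Rgl: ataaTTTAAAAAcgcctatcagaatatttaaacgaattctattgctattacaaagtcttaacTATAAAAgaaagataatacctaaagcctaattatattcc
lncRNA:CR45622 to upd2: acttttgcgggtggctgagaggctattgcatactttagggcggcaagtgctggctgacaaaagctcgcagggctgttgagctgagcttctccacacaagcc

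Summits of the weaker peaks between genes were richer in A and T than the sequence around them. The 101 bp windows at the summits averaged 63.5% A+T, against 57.4% in windows centred 500 bp to either side, an excess of 6.15 percentage points. In the replicates' own peaks overlapping the members the excess was 4.34, 7.84 and 5.21 points, a mean of 5.80 ± 1.82 (SD, n = 3). It was above 0 in every replicate and highest in replicate 2. The summit window was richer in A+T than its own flanks at 2933 members, or 66.7%, against 88.3% of IDR-thresholded peaks between genes. The flanks at 500 bp were poorer in A+T than sequence farther out. With flanks centred 1000 bp away the excess of the pooled summits was 4.96 points. All sequence over 500 bp from every TSS and in no transcript was 59.2% A+T, and summit windows of the weakest quartile by signal averaged 60.4%.

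The A+T excess was not spread evenly over the members. By signal quartile, weakest to strongest, it was 2.78, 3.62, 6.56 and 11.6 points. Among IDR-thresholded peaks between genes the quartiles gave 12.95, 13.4, 13.8 and 12.4 points, so the strongest members approached the level of the stronger list and the rise stopped there. Windows of at least 70% A+T made up 19.7% of the weakest quartile of members and 49.8% of the strongest. Members with no overlapping peak in any replicate list had an excess of 2.74 points, and those overlapped in 1, 2 and 3 lists had 5.03, 6.04 and 7.13 points. Signal, replicate support and A+T moved together here, and the part of each was not tested.

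**Figure D1:**
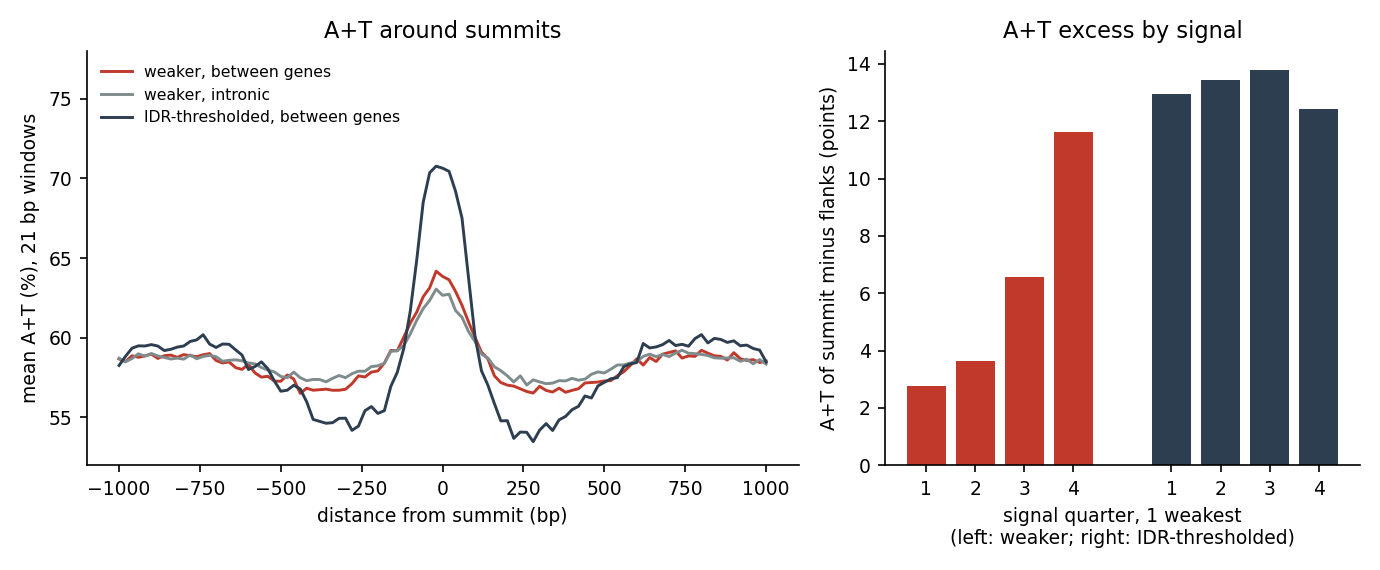
Left, mean A+T in 21 bp windows at distances up to 1000 bp from the summit for weaker peaks between genes, weaker intronic peaks and IDR-thresholded peaks between genes, where the curve of the weaker peaks between genes reaches 64.2% near the summit and that of the IDR-thresholded peaks 70.8%. Right, A+T of the 101 bp summit window minus that of windows 500 bp away by signal quartile, with bars that climb to 11.6 points in the strongest weaker peaks and stay between 12.4 and 13.8 points in the IDR-thresholded peaks.

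The same measure was compared with the 2 nearest sets over replicates. The excess averaged 5.80 ± 1.82 points at weaker peaks between genes and 4.18 ± 1.43 points at weaker intronic peaks (SD, n = 3 each). It was higher between genes in 3 of 3 replicates, by 1.61 ± 0.39 points (two-sided exact permutation test by sign flips, p = 0.25, adjusted p = 0.375). Against IDR-thresholded peaks between genes, where it averaged 12.8 ± 0.41 points, the excess of the members was lower in 3 of 3 replicates, with a difference of -7.05 ± 1.51 points (same exact test, p = 0.25, adjusted p = 0.375). With 3 replicates this test cannot go below 0.25, so neither difference could pass 0.05.

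Short words rich in A and T were more frequent at member summits than beside them. The word TATAAAA, the consensus core of the TATA box, was found on either strand in 402 member windows, or 9.15%, against 4.28% of their flanks and 8.18% of all pooled summit windows. TTTAAAAA was found in 4.91% of member windows, against 1.87% of flanks and 4.91% of pooled windows. AAAATATT was found in 5.62%, against 2.96% of flanks and 5.05% of pooled windows. The repeat ATATATAT was in 3.39%, against 1.71% of flanks and 3.17% of pooled windows, and a run of 8 A (AAAAAAAA) in 8.26%, against 6.01% and 7.92%. The share with TATAAAA climbed with signal among members and stood at 6.64% in the weakest quartile and 12.6% in the strongest. The GATA factor site AGATAA was in 7.55% of member windows, against 5.32% of flanks and 7.5% of pooled windows. The homeodomain core TAATTA was in 8.49%, against 7.19% of flanks, 8.75% of pooled windows and 12.9% of windows at IDR-thresholded peaks between genes. In the replicates' own windows TATAAAA averaged 9.02% ± 0.89 and AGATAA 7.90% ± 0.12 (SD, n = 3). The member shares of TTTAAAAA and AGATAA thus lay at the level of the whole pooled list.

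Full sites of promoter and insulator factors were rare in the members, as in the other peak sets away from promoters. TATCGATA, the site of the promoter factor DREF and the insulator protein BEAF-32, occurred in 11 members, or 0.25%, against 0.102% of flanks and 1.25% of pooled windows. It was in 0.2% of weaker intronic windows and 0.533% of windows at IDR-thresholded peaks between genes. GGTCACACT, a site of the core promoter factor M1BP, occurred in 3 members, or 0.068%, against 0.023% of flanks and 0.707% of pooled windows. Its shares in the same 2 sets were 0.122% and 0.152%. The shorter BEAF-32 core CGATA was in 10.5% of member windows, against 10.4% of flanks and 13.7% of pooled windows, and with windows reaching 100 bp it was lower at summits than in flanks. Motif 7, the core promoter word CATCNCTA, was in 0.819%, against 0.444% of flanks and 0.993% of pooled windows. CAGGTAG, the site of Zelda, an early activator of the embryonic genome, was in 12 members, or 0.273%, against 0.478% of flanks and 0.387% of pooled windows. GAGAGAG, read by GAGA factor, was in 0.933% of member windows, against 1.44% of flanks and 1.57% of pooled windows. Repeats of CAG (CAGCAGCAG) were in 0.432%, against 1.04% of flanks and 0.547% of pooled windows, and CACACACA was in 2.23%, against 2.89% of flanks and 2.24% of pooled windows. The E-box CAGCTG was in 2.71%, against 4.005% of flanks and 3.82% of pooled windows, while the E-box CATATG was in 3.91%, against 3.08% and 3.7%. GCCAT, the core site of the Polycomb recruiter Pho, was in 17.0%, against 21.2% of flanks and 15.4% of pooled windows. Of the 18 words searched on both strands, 12 were more frequent at member summits than in flanks. Word matches describe letters in a window and overlap one another where they share letters.

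Of 1746 words of 6 letters compared without a prior list, the most raised at member summits was AATATA, in 22.3% of windows against 10.8% of flanks. AGTGTA followed with 6.35% against 3.06%, and ATATAA with 19.8% against 9.62%. Of the 15 most raised words, 11 held at least 5 letters A or T, while all of the 15 most lowered held at most 2. The summit with TATCGATA between spel1, a mismatch repair gene, and ppk, a sodium channel gene, shows such a site at the edge of a window of short repeats. It lies at chr2L:14377042-14377142, is 57.4% A+T, had a signal of 159 and lay 4080 bp from the nearest TSS, with peaks over it in 2 replicate lists. Capitals mark TATCGATA.
spel1 to ppk: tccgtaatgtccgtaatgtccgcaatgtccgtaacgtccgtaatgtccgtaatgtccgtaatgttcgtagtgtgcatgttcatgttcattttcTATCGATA

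Support from the single replicates was partial. Of the members, 65.2% were overlapped by at least 1 bp by a peak of replicate 1, 80.2% by a peak of replicate 2 and 65.9% by a peak of replicate 3, a mean of 70.4% ± 8.46 (SD, n = 3). The same shares over all pooled peaks were 78.5%, 84.5% and 81.6%. Replicate 2 covered the most members and the other replicates covered nearly equal shares. Its peaks were also the widest, with median widths of 356, 476 and 360 bp in replicates 1, 2 and 3, and the part of width in these shares was not tested. Peaks of all 3 lists overlapped 1720 members, or 39.1%, against 61.4% of all pooled peaks and 43% of weaker pooled peaks. The share was 18.7% when summits had to lie within 100 bp, and 26.4% with a reciprocal overlap of at least 50%. Another 1567 members were overlapped in 2 lists, 988 in 1 list and 120, or 2.73%, in none, against 1.9% of all pooled peaks and 2.88% of weaker pooled peaks. The most common single-list pattern was replicate 2 alone, with 529 members, against 268 for replicate 1 alone and 191 for replicate 3 alone. The pooled and replicate lists come from the same alignments, so some overlap is built in.

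**Figure D2:**
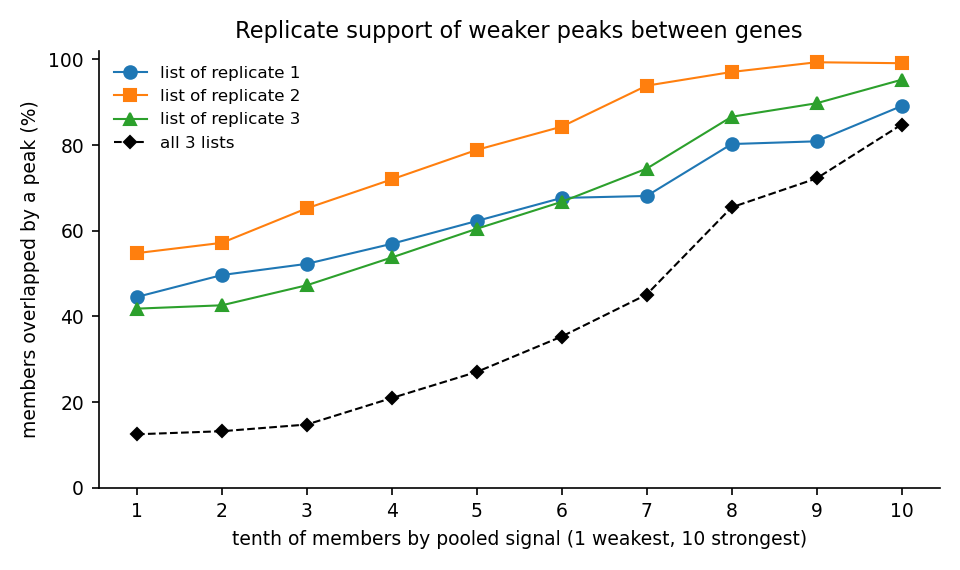
Share of weaker peaks between genes overlapped by a peak of each replicate list and of all 3 lists (y axis, percent) by decile of pooled signal (x axis, weakest to strongest). Each curve is lowest in the weakest decile, and replicate 2 is the highest of the 3 replicates in each decile.

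Support was tied to signal, which the choice of members had used, so this gradient is a description. By signal quartile, weakest to strongest, 13.1%, 22.3%, 44.2% and 77.0% of members were overlapped in all 3 lists. Weaker intronic peaks, with nearly the same median signal, were overlapped at 66.3%, 78.9% and 73.1% in replicates 1, 2 and 3. Members averaged 70.4% ± 8.46 and weaker intronic peaks 72.8% ± 6.30 (SD, n = 3 each), a difference of -2.39 ± 4.35 points, with members lower in 2 of 3 replicates (two-sided exact permutation test by sign flips, p = 0.75, adjusted p = 0.75). Without replicate 3 the difference was 0.022 points, so its sign rests on that replicate. IDR-thresholded peaks between genes were overlapped at 97.2%, 99.5% and 98.9%, shares that the threshold itself favours, and no test was made against them.

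Where a member was supported, the replicates placed and ranked it loosely. The overlapping peaks had median ranks of 17171, 18009 and 17571 of 30000 in replicates 1, 2 and 3, and their summits lay a median of 61, 34 and 52 bp from the pooled summit. Over the 1720 members found in all 3 lists, Spearman's rho of the replicates' signals across peaks was 0.15 for replicates 1 and 2, 0.30 for 1 and 3, and 0.33 for 2 and 3. Over 1261 IDR-thresholded peaks between genes it was 0.61, 0.80 and 0.67. These coefficients are across peaks that share libraries, and members span a narrower range of signal. The IDR threshold itself favours peaks that the replicates rank alike, so the higher values of that list were favoured by its choice. No test was made.

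The strongest members show how unevenly single replicates saw them. The member between spri, which encodes an endocytic Ras effector, and Rab9D, a Rab-family small GTPase gene, lies at chrX:10587420-10587859 and had replicate signals of 39.0, 126 and 64.3 in replicates 1, 2 and 3. Signals are not on 1 scale across lists, so ranks are given beside them: 12361, 8759 and 7855. The member between CG14506 and Cnx99A, the calnexin gene, lies 9537 bp from the nearest TSS and ranked 8644, 8549 and 11037. The members at nAChRalpha2 and dysc, whose sequences are given above, had no overlapping peak in replicate 1 and ranked 10392 and 6506 in replicate 2, and 9066 and 9261 in replicate 3. The member beside upd2, with the low A+T, ranked 8239, 12345 and 5927, so a low A+T did not go with weak support at this site.

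The 5 members with the best mean rank were not the 5 with the highest pooled signal. The best mean rank, 6443, belonged to a member between exex, a motor neuron homeobox gene, and RNaseX25, at chr3L:7962314-7962753. Its pooled signal was 90.01 and its replicate ranks were 8172, 3975 and 7181, and it lay 221 bp from an IDR-thresholded interval. Another member of the same gap, at chr3L:7960750-7961189, had a pooled signal of 222 and ranks of 5076, 9883 and 7475. A member beside Gnf1, which encodes the large subunit of the replication factor C clamp loader, had a pooled signal of 174, ranked 4025, 8184 and 7686 and lay 298 bp from an IDR-thresholded interval. Over all members, the supporting replicate peak also touched an IDR-thresholded interval in 1, 9 and 4 cases in replicates 1, 2 and 3. Neighbouring members could share a replicate peak, so the 2864 members overlapped in replicate 1 rested on 2537 peaks of that list.

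Weaker peaks between genes lay closer to TSSs than the sequence open to them. Their median distance to the nearest TSS was 3379 bp, against 3242 bp for IDR-thresholded peaks between genes, 3369 bp for weaker intronic peaks and 6037 bp for the 36.5 Mb of eligible sequence, meaning all bases over 500 bp from a TSS and in no transcript. Replicate lists under the same rule had medians of 3196, 3472 and 3260 bp. Pooled members numbered 185 per Mb at 500 to 1000 bp, 192 at 1000 to 2000 bp, 156 at 2000 to 5000 bp, 142 at 5000 to 10000 bp, 91.5 at 10000 to 20000 bp and 18.7 beyond. The replicate lists averaged 191 ± 5.59 per Mb in the nearest of these bins and 16.6 ± 2.71 in the farthest (SD, n = 3). Members were nearly absent from the 10% of each large arm nearest the centromere. Without that sequence and chromosome 4, the nearest bin held 193 per Mb and the farthest 41.1. The median distances were then 3388 bp for members and 4760 bp for eligible sequence, which lay closer together. The large arms without that sequence are called the outer arms.

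**Figure D3:**
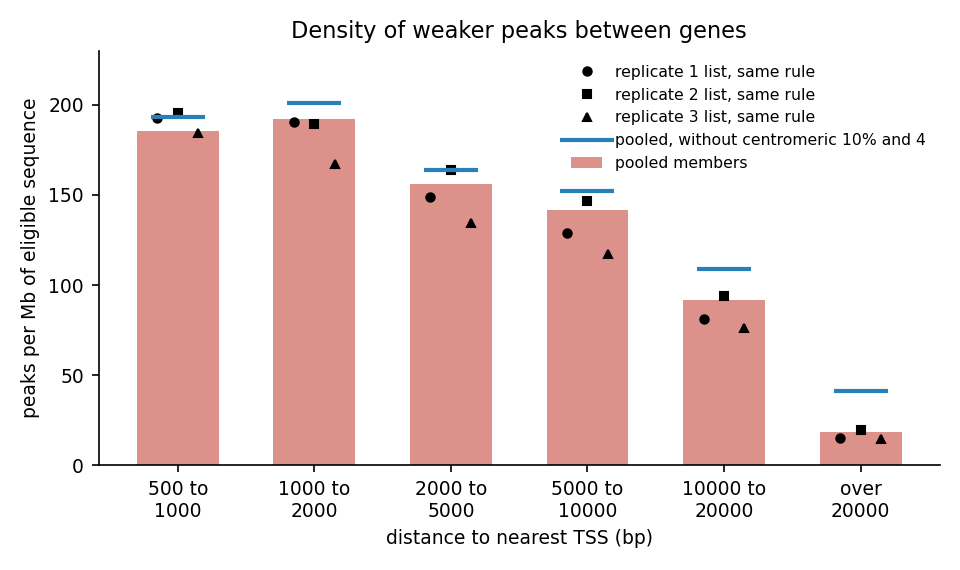
Weaker peaks between genes per Mb of eligible sequence (y axis) by distance to the nearest TSS in bp (x axis), with bars for the pooled list, points for the replicate lists under the same rule and blue lines for the pooled list of the outer arms. The bars fall to 18.7 per Mb beyond 20000 bp, against 185 per Mb at 500 to 1000 bp.

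The members farthest from any TSS were few. One lay 96488 bp away, in the gap between Pld, the phospholipase D gene, and lncRNA:CR46075 at chr2R:6341780-6342219, with a signal of 82.1 and an overlapping peak in replicate 3 alone. A pair lay 37833 and 37740 bp away between bab1 and bab2, paralogous transcription factor genes of limb and abdomen patterning, with signals of 65.7 and 153. The stronger of the pair was found in all 3 lists, with ranks of 12912, 12708 and 13132.

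Members also sat near the stronger peaks. Their median distance to the nearest IDR-thresholded interval was 3571 bp, and 60.9% lay within 5000 bp of one, against 21.2% of eligible bases outside those intervals. On the outer arms the shares were 60.9% and 25.8%. Weaker intronic peaks had a median of 2862 bp. The rule removed only overlapping peaks, so 615 members lay within 1000 bp of an IDR-thresholded interval.

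The members were gathered into a minority of gaps between genes. Of 6492 gaps with eligible sequence, 1497 held a member, or 23.1%. Gaps with at least 5 members numbered 275 and held 51.0% of all members, and 61 gaps with at least 10 held 873 members, or 19.9%. Gap length moved with this: gaps with a member had a median of 5305 eligible bases, and gaps without one had 638. Long gaps could also be empty: of 375 gaps with at least 20000 eligible bases, 205 held no member. An IDR-thresholded peak was present in 510 of the 1497 gaps with a member, or 34.1%, against 749 of all 6492 gaps. A member was present in 68.1% of the gaps with an IDR-thresholded peak, against 23.1% of all gaps. The part of gap length in these shares was not tested.

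By the strands of the flanking genes, members numbered 148 per Mb in divergent gaps, 122 in tandem gaps and 113 in convergent gaps. Replicate lists averaged 144 ± 10.99, 117 ± 9.82 and 104 ± 11.4 per Mb (SD, n = 3), and the order divergent, tandem, convergent was the same in each of the 3. On the outer arms the pooled densities were 157, 148 and 138 per Mb, and the types lay closer together.

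**Figure D4:**
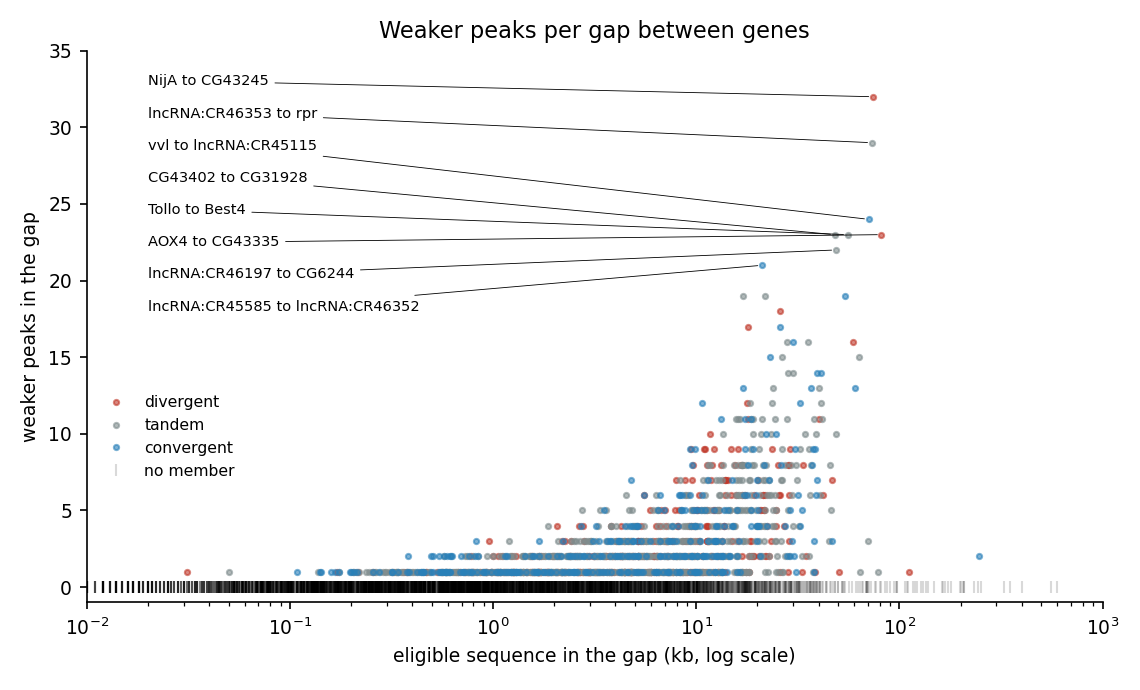
Number of weaker peaks between genes in each gap (y axis) against its eligible sequence in kb (x axis, log scale), coloured by the strands of the flanking genes, with gaps without a member as ticks at 0. The 8 gaps with the most members are named, from NijA to CG43245 with 32 to lncRNA:CR45585 to lncRNA:CR46352 with 21.

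The gap with the most members, 32, runs from NijA, which encodes the membrane protein Ninjurin A, to CG43245 at chr3L:10696878-10771924. The same rule found 21, 35 and 30 peaks there in replicates 1, 2 and 3, and the gap also held 11 IDR-thresholded peaks. The gap with 29 members, at chr3L:18323986-18397534, lies between lncRNA:CR46353 and rpr, with grim as the nearest coding gene on the other side. Both rpr and grim encode activators of apoptosis. It held 29, 26 and 18 peaks in the replicate lists, and its members had an A+T excess of 8.13 points. The gap beside vvl, a POU-domain transcription factor gene, held 24 members and that beside Tollo, a Toll-family receptor gene, held 23. In the Tollo gap the A+T excess was 9.88 points, the highest of the 8 gaps with the most members.

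Other gaps of this kind flanked AOX4, an aldehyde oxidase gene, with 23 members, CG43402 with 23, and the region near comm, which controls axon crossing of the midline, with 22. In the AOX4 gap 2 of 23 members were found in all 3 replicate lists, against 12 of 22 in the gap near comm. The gap from lncRNA:CR45585 to lncRNA:CR46352 at chr3R:5021475-5042651, between plh and corto, stood apart from the other 7. It packed 21 members into 21050 eligible bases, or 0.998 per kb, against 0.282 to 0.480 per kb in the others. It held no IDR-thresholded peak between genes, the A+T excess of its members was -2.17 points, below their flanks, and the replicate lists found 18, 20 and 20 peaks there.

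Regulators of embryonic patterning were often neighbours of members, and ribosomal protein genes were near the share of all genes or below it. A gene counts as a neighbour when the gap on either side of it holds a member, so a member counts for the genes on both sides. Among protein-coding genes 13.2% were neighbours, and among all genes of the annotation 14%. Of 15 pair-rule and segment polarity genes, which set the segments of the embryo, 11 were neighbours, or 73.3%. Of 22 mesoderm and muscle genes 16 were, or 72.7%, of 13 eye and appendage selector genes 8, or 61.5%, and of 12 gap and maternal coordinate genes 7, or 58.3%. Neural fate and neuronal genes followed with 9 of 20, or 45%, Hox genes with 3 of 8, and cell adhesion and axon guidance genes with 6 of 20. The replicate lists gave more for both of these, with 75%, 50% and 62.5% of Hox genes and 45%, 40% and 45% of adhesion genes, against 37.5% and 30% in the pooled list. IDR-thresholded peaks between genes had the same trait. Their neighbours were 53.3% of pair-rule and segment polarity genes, 50% of gap and maternal coordinate genes, 30% of neural genes and 27.3% of mesoderm genes. Selector genes had 23.1%, adhesion genes 20%, Hox genes 12.5% and ribosomal genes 6.52%, against 6.81% of protein-coding genes.

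Lists of other functions lay nearer the share of all genes. Of 92 cytoplasmic ribosomal protein genes 13 were neighbours, or 14.1%, and of 121 cuticle protein genes 18, or 14.9%. Odorant-binding protein genes had 15.7%, chemosensory receptor genes 11.2%, cytochrome P450 genes 8.24% and insulator protein genes 1 of 15. In the stronger 50% of members the odorant-binding share was 7.84%, the cuticle share 9.92% and the P450 share 4.71%, against 9.82% of protein-coding genes. Among members over 1000 bp from a TSS the insulator share was 0% and the cytoplasmic ribosomal share 8.70%, against 10.99% of protein-coding genes. Under these settings, in the same order, mesoderm and muscle genes had 63.6% and 54.5%, and selector genes 46.2% and 61.5%. Pair-rule and segment polarity genes had 66.7% and 73.3%, and gap and maternal coordinate genes 58.3% in both. Neural genes had 40% in both, Hox genes 25% in both, and adhesion genes 25% and 30%. Of 73 mitochondrial ribosomal protein genes none was a neighbour in the pooled list, and 1.37% were in each replicate list. tRNA genes had 11.7% and microRNA genes 3.46%, against 14% of all annotated genes. A gene with no eligible sequence beside it could not be a neighbour. Such sequence lay beside 19 of the 73 mitochondrial ribosomal genes and 5 of the 15 insulator genes, against 7689 of 13945 protein-coding genes. It lay beside 85 of 290 tRNA genes and 25 of 260 microRNA genes, against 9212 of 17896 annotated genes.

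**Figure D5:**
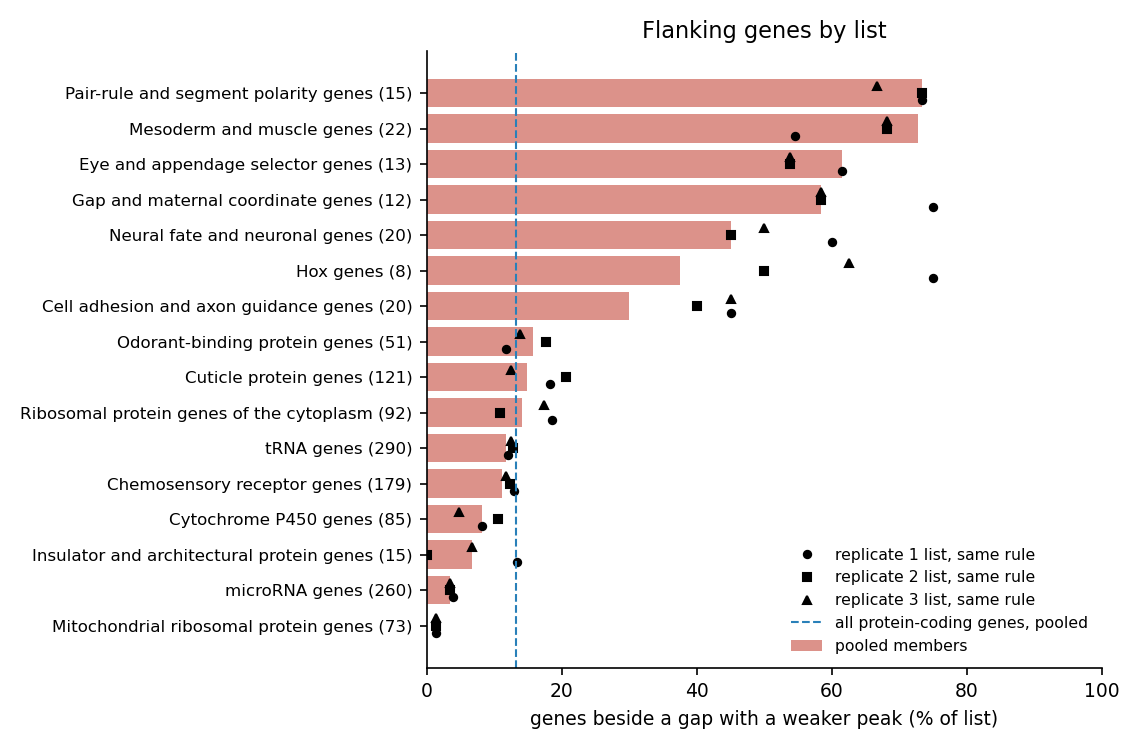
Share of each gene list (y axis, with the number of genes) that borders a gap holding a weaker peak between genes (x axis, percent), with bars for the pooled list, points for the replicate lists under the same rule and a dashed line for all protein-coding genes at 13.2%. The patterning lists stand well to the right of the line, with 73.3% for pair-rule and segment polarity genes.

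Gap length differed between these lists, and its part in the shares was not tested. The median eligible sequence beside a gene was 17869 bases for gap and maternal coordinate genes, 16615 for pair-rule and segment polarity genes, 12207 for selector genes, 6502 for cell adhesion genes, 5790.5 for Hox genes and 3311 for mesoderm and muscle genes, against 50 for all protein-coding genes. It was 1043 for cuticle protein genes, 464 for chemosensory receptor genes, 108 for odorant-binding protein genes, 30 for cytoplasmic ribosomal protein genes and 21 for cytochrome P450 genes. The lists with medians of 3311 bases or more had shares of at least 30%, and those of 1043 or less had at most 15.7%. Among the former, the order of the shares did not follow the medians. Among genes with at least 5000 eligible bases beside them, 78.6% of pair-rule and segment polarity genes were neighbours, as were 10 of 10 mesoderm and muscle genes and 7 of 7 selector genes, against 49.5% of all protein-coding genes. Gap and maternal coordinate genes and neural genes had 7 of 9 each. Hox genes had 3 of 6 and cell adhesion genes 6 of 12, at the level of all protein-coding genes. Cuticle protein genes had 9 of 16 and odorant-binding protein genes 4 of 7, near that level. tRNA genes had 21 of 39, or 53.8%, near the 51.3% of all annotated genes with such gaps. Cytochrome P450 genes had 38.5%, chemosensory genes 33.3% of 48 and ribosomal genes 22.2% of 9. Per Mb of eligible sequence, members numbered 318 beside mesoderm and muscle genes, 295 beside selector genes, 224 beside pair-rule and segment polarity genes, and 54.7 beside ribosomal genes. The values were 113 beside all protein-coding genes and 136 beside those of the outer arms. Gap and maternal coordinate genes had 215 per Mb and neural genes 210, while Hox genes had 91.6 and cell adhesion genes 112. Outside the patterning lists, tRNA genes had 182 per Mb and cytochrome P450 genes 146. Of the 25 members beside cytochrome P450 genes, 15 lay beside Cyp12e1 alone, in 29187 eligible bases. Over all gaps, density fell with size, from 229 per Mb in gaps of up to 1000 eligible bases to 21.1 in gaps over 50000. The part of gap size in the densities of the lists was not tested. In the replicate lists the mesoderm, selector, pair-rule and ribosomal lists averaged 279 ± 36.2, 224 ± 40.3, 223 ± 22.8 and 56.8 ± 7.58 per Mb, against 108 ± 9.26 for all protein-coding genes (SD, n = 3).

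Several patterning genes each bordered many members, and so did some genes of other lists. B-H2, a homeobox gene of eye and bristle fate, had 23 members beside it, with 16, 20 and 14 peaks in the replicate lists, and its strongest member lay at chrX:17307221-17307660 with a signal of 210. The homeobox gene oc, which patterns the head, had 18 members and 23, 12 and 14 replicate peaks. The head gap gene ems had 15 members, with 14, 16 and 13 replicate peaks. The segment polarity gene en, which marks posterior compartments, had 15 members and 7, 14 and 16 replicate peaks. The counts of oc and en varied more between replicates than that of ems. The Wnt ligand gene wg had 13 members and 13, 13 and 12 replicate peaks. The Sox-family gene D had 15 members, and the Sox gene SoxN had 10. Outside the patterning lists, the cytochrome P450 gene Cyp12e1 had 15 members and 10, 13 and 9 replicate peaks, tRNA:Ile-TAT-1-2 had 12 members and 16, 12 and 18, and the ionotropic receptor gene Ir7a had 11 members and 6, 10 and 7.

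Mesoderm genes had fewer but closely packed members. Act57B, a muscle actin gene, had 7 members in 9621 eligible bases, with 5, 7 and 7 replicate peaks. The mesoderm homeobox genes bap and tin had 6 and 5, and their strongest member, at chr3R:21386082-21386521 with a signal of 182, lies in the gap the 2 genes share. The mesoderm regulator sna had 5 members and 8, 8 and 3 replicate peaks, and twi had 3, the strongest with a signal of 202. Among Hox genes, abd-A had 3 members, and Dfd and lab had 1 each. The strongest member beside a gap gene, with a signal of 218, was 6508 bp from the nearest TSS beside hb. RpL13 led the ribosomal list with 7 members in 15025 eligible bases, with 6, 7 and 3 replicate peaks.

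Along the chromosomes, members were sparse near centromeres. The 10% of the large arms nearest the centromere held 15 members, or 2.33 per Mb, against 146 per Mb over the rest of these arms. Replicate lists averaged 2.91 ± 0.09 and 139 ± 12.5 per Mb (SD, n = 3). By arm the pooled density was 134 per Mb on 2L, 88.7 on 2R, 139 on 3L, 112 on 3R, 131 on X and 44.5 on chromosome 4, where 12 members lay. The replicate lists spread most on chromosome 4, with 59.3, 33.4 and 96.4 per Mb.

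Few members touched annotated transposable elements. They overlapped one at 92 members, or 2.09%, against 1.1% of all pooled peaks, and the summit itself lay in one at 28 members, or 0.637%, while such elements made up 10.8% of eligible bases. In the replicate lists the summit share was 0.575%, 0.816% and 0.815%. Of the 28, 12 lay in INE-1 elements. How reads matching several places were treated is not stated in the labels or file lists.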

How the data were processed

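Peaks, summits and widths were read from 5 deposited narrowPeak lists on dm6. Per the deposited file lists, each replicate was called on its own alignment and the pooled list on all 3, against 1 shared control, and the thresholded list came from the other 4. Aligner, peak caller and IDR setting: not given in the sources used here. Within a list, peaks were ranked by the deposited signal. The deposited −log10 q-value was not used for ranking, since 5.98% of members sat at its ceiling. The authors' summit offsets placed each summit.

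Genes came from Ensembl release 115, sequence from RefSeq Release 6. Windows of 101 bp were compared with windows 500 bp away. Replicate values are means ± SD. Differences between peak sets were tested by exact sign flips over replicates, with Benjamini-Hochberg adjustment over 3 tests. A planned test of replicate support against IDR-thresholded peaks was dropped, because that list was chosen from the replicates. Named regions are the 12 strongest members, the 5 farthest from a TSS, the 5 best ranked, the 8 fullest gaps, those at the threshold, and per gene list the strongest; other genes beside many members, and the TATCGATA site, were chosen after their values were seen. Members, lists and words were chosen with earlier results of these data known. Overlap, distance and sign-flip code was tested on simulated peaks. Python 3.11.15, numpy 2.4.6, pandas 2.3.3 and matplotlib 3.10.9 were used.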

Additional observations from a re-analysis of the deposited data

How the results depend on the processing

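Of 69 summary values recomputed under an alternative, 52 were scored as unchanged. This meant within the replicate spread, within 1.5 times for counts, and only an unchanged sign for differences between peak sets. The difference in support from IDR-thresholded peaks between genes thus counted as unchanged, though it went from -28.1 to -17.7 points with a reciprocal overlap of at least 50%. No paired analysis was possible because the series holds 1 group, so no groups share replicate numbers. The sign-flip tests set peak sets of the same replicate side by side. Support in all lists, 39.1%, was 26.4% with a reciprocal overlap of at least 50%, 18.7% with summits within 100 bp and 60.6% in the stronger 50% of members. It was 45.8% to 54.9% when 1 replicate was left out, which asks for overlap in 2 lists in place of 3. The difference in support from weaker intronic peaks ran from -4.20 to 0.022 points when 1 replicate was left out, and its sign turned without replicate 3. The A+T excess was 9.09 points in the stronger 50%. The median TSS distance was 4078 bp for members over 1000 bp from a TSS, 5090 bp with TSSs of protein-coding genes only and 3052.5 bp with all genes. The density in divergent gaps relative to all gaps was 1.24 with coding flanks, 1.21 in the stronger 50% and 1.08 on the outer arms, an alternative chosen after seeing the data, against 1.23. The share of coding genes beside a member was 9.82% in the stronger 50% and 10.99% over 1000 bp from a TSS. Overlap with transposable elements was 0.637% when the summit had to lie inside, and the density on 3L relative to all arms was 1.21 in the stronger 50%, against 1.16. Of 84 values for single lists and words, 43 stayed within the replicate spread, 40 moved, and 1, the summit minus flank share of CGATA, changed sign, to -0.637 points, with windows reaching 100 bp. The unknown depth and the fixed list length of 30000 limit what the absence of a replicate peak can show.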

Other observations

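Weaker peaks outside the gaps between genes give further values. Weaker peaks at promoters, 4406 in number, had an A+T excess of 2.84 points, and 1.09, 4.82 and 1.38 points in the replicates' own peaks. They were overlapped at 79.2%, 78.8% and 82.7% in replicates 1, 2 and 3, and the highest share was that of replicate 3. Soft-masked bases made up 21.8% of member summit windows and 16.2% of their flanks, against 26.9% and 16.8% at IDR-thresholded peaks between genes.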
